A study of Mus musculus with 2 samples.

Results

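The cytochromes P450 of families CYP1, CYP2 and CYP3 were followed in whole liver, as all genes whose symbol in the array's probe annotation starts with Cyp1, Cyp2 or Cyp3, then 1 lower-case letter and a number. The rule found 45 genes, read by 46 probes, among 19321 named genes. The study hybridised liver RNA from mice aged 24 weeks to 2 arrays in a single colour. The first array held a Twist2-Cre liver, here called control. The second held a Twist2-Cre/A20fl/fl liver, here called CKO, which carried floxed A20 alleles in addition to the same Cre transgene. Both genotypes thus carried Twist2-Cre, a driver known for its activity in mesenchymal lineages, whereas most of these enzymes are made by hepatocytes. A20 is the ubiquitin-editing protein encoded by Tnfaip3, a brake on NF-kB signalling. The number of animals per RNA was not given in the sources used here. Each genotype having 1 array, nothing could be tested or checked in a replicate, and every difference below is one between these arrays.

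Enzymes of these families sit in the endoplasmic reticulum of hepatocytes and oxidise drugs, pollutants, steroids and fatty acids. They take electrons from cytochrome P450 reductase and cytochrome b5, and each holds a haem. Their genes are switched on by ligand-activated receptors, namely the aryl hydrocarbon receptor (Ahr) for CYP1, the constitutive androstane receptor (Nr1i3) for CYP2B and CYP2C, and the pregnane X receptor (Nr1i2) for CYP3A. Inflammatory cytokines are widely known to lower many of them in liver.

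Values are given on 2 scales. Deposited intensities are the authors' linear values, in arbitrary units. Ratios are CKO over control in log2 units after normalization, which shrinks those of dim genes towards 0. Between different genes the intensities reflect the probes as well as the transcripts, so only the arrays are compared, gene by gene. Of 23473 gene probes, the control array had 73.8% above background and the CKO array 73.6%. Probes of 1 gene differed in ratio by 0.13 (SD, 716 genes), which measures error within arrays only. Tnfaip3 had deposited intensities of 41 and 38 in control and CKO. Which part of the transcript its probe reads was not known, and whole liver holds many cells outside the Cre lineage, so this does not check the deletion. All 9 measured hepatocyte markers were above background on both arrays, with a median ratio of 0.03, and the gene for albumin had deposited intensities of 37445 and 36770.

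Most CYP1, CYP2 and CYP3 transcripts were at similar levels in both livers. Of the 45 genes, 41 were above background on both arrays, 4 on neither and 0 on 1 array only. Their median ratio was 0.03, against -0.02 over all 14143 genes above background, and 32 of 41 lay within 1.2-fold, against 90.4% of all genes. No CYP member reached 2-fold on the normalized scale in either direction, where 0.636% of all genes passed 2-fold upwards in the CKO liver and 0.0778% downwards. At 1.5-fold, 3 members (7.32%) were higher and 0 lower, against 1.7% and 0.417% of all genes. The 3 were Cyp3a11, Cyp2c55 and Cyp3a44, of which Cyp3a11 and Cyp2c55 passed 2-fold in some other processing settings. Among members with a mean log2 level of at least 10, where the shrinkage is small, 19 of 23 lay within 1.2-fold, against 79.2% of the 823 genes that bright. There 1 member was at least 1.5-fold higher and 0 lower, against 2.79% and 1.94% of those genes.

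**Figure D1:**
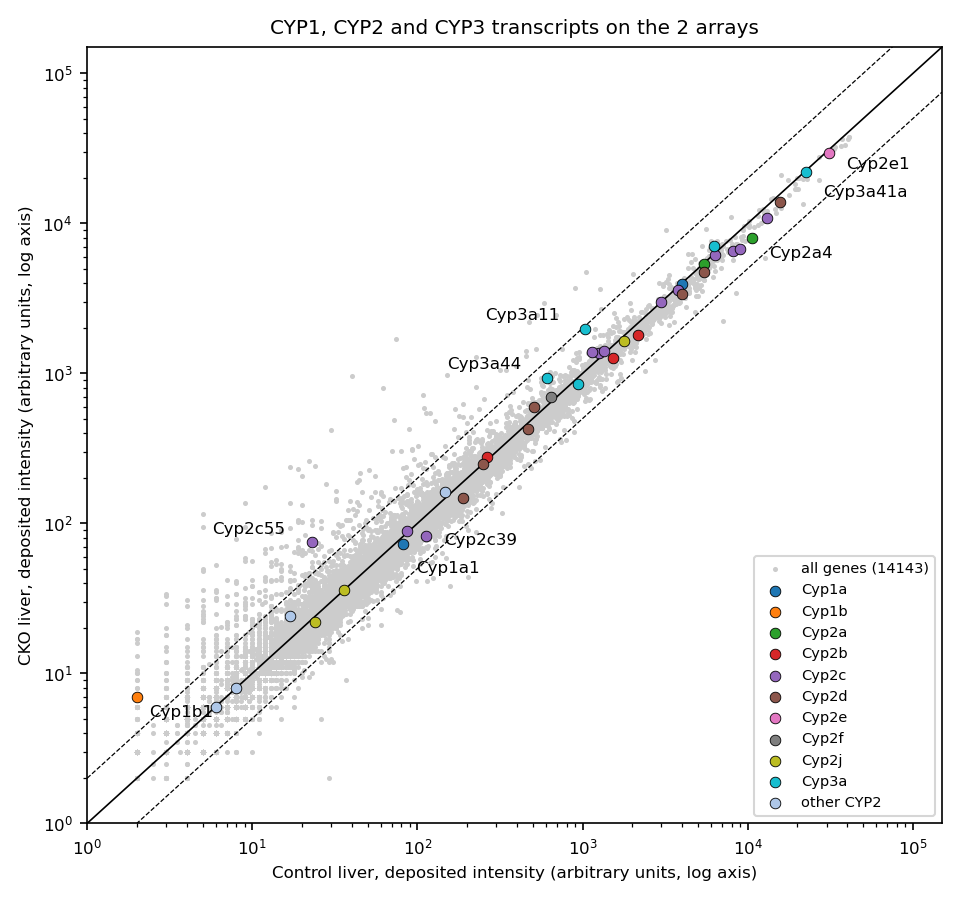
Deposited intensity of each gene in the CKO liver (vertical) against the control liver (horizontal), both on log axes in arbitrary units. Grey points are the 14143 genes above background on both arrays, coloured points the 41 CYP members by subfamily, the solid line marks equal values and the dashed lines 2-fold. Most members lie close to the solid line, with Cyp3a11, Cyp3a44, Cyp2c55 and the near-background Cyp1b1 farther above it.

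The signs of some small ratios depended on the scaling between the arrays. Across 6 ways of correcting and scaling the spots, 16 members were always higher in the CKO liver and 14 always lower. The other 11 changed sign or were equal in at least 1 of the 6. How often all genes kept 1 sign across the 6 was not counted, so these numbers have no background beside them. The share of members on the higher side was 53.7% with quantile normalization, 51.2% with median scaling, 63.4% with cyclic loess and 39.0% in the deposited values, where 22 were lower and 3 equal. The same shares over all genes were 42.2%, 42.6%, 50.3% and 37.3%. No direction is therefore given for the families as a whole.

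The CYP3A subfamily held the largest ratio on the normalized scale, while in the deposited values Cyp2c55 (1.71) and Cyp1b1 (1.81) exceeded Cyp3a11 (0.93). Cyp3a11, a major drug-oxidising CYP3A of mouse liver and a classical target of the pregnane X receptor, had a deposited intensity of 1039 (control) and 1983 (CKO). Its ratio was 0.99, which is 1.98-fold, and 0.665% of all genes had a higher ratio. Genes of its brightness (log2 level 10 to 11, 390 genes) had ratios between -0.57 and 0.60 in their middle 95 percent, so Cyp3a11 lay above that range. Of the other members, 35 lay inside the range for their brightness, 2 lay above it (Cyp2c55 and, by a margin in the third decimal, Cyp1b1), and 3 were too bright for enough genes of like level. Cyp3a44, a form found mainly in adult females, had deposited intensities of 609 and 936. The ratio of Cyp3a44 was 0.65, inside the range of -0.48 to 0.70 of genes of similar brightness (log2 level 9 to 10). The level of Cyp3a44, 9.89, lay near the edge of the class from 10 to 11, where 0.65 would exceed the upper end of 0.60.

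The other CYP3A genes differed less. Cyp3a16, known chiefly as a form of fetal and neonatal liver, had deposited intensities of 6225 and 7100 and a ratio of 0.29. Cyp3a41a, another female-predominant form, stood at 22598 and 21982, with a ratio of 0.15 that had the opposite sign (-0.04) in the deposited values. Cyp3a13, a form shared by liver and intestine, stood at 942 and 852 with a ratio of -0.08. Over the 5 measured CYP3A genes the median ratio was 0.29. Their coding sequences are close to each other, and probe sequences were not used here, so signal may be split or shared between neighbours, Cyp3a41a and its near copy Cyp3a41b above all.

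The upstream regions of these genes are shown so that their letters can be read beside the ratios. Each is the 250 bases before the annotated start of transcription in RefSeq (GRCm38.p6), 5′ to 3′ on the gene's own strand, with TATAA on that strand and TGTTTAC on either strand in capitals. TATAA is the core of a TATA box and TGTTTAC the core bound by FOXA factors, which open liver enhancers. Cyp2c55 is added as a member past 1.5-fold outside CYP3A, and Cyp3a13 as the CYP3A gene that lies apart from the cluster.
Cyp3a11 (chr5:145879855-145880104, minus strand): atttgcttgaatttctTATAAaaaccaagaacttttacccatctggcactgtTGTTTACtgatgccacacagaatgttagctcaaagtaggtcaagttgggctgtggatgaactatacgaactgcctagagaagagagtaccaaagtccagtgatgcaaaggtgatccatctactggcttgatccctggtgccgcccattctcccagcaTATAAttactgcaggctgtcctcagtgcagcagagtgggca
Cyp3a44 (chr5:145805875-145806124, minus strand): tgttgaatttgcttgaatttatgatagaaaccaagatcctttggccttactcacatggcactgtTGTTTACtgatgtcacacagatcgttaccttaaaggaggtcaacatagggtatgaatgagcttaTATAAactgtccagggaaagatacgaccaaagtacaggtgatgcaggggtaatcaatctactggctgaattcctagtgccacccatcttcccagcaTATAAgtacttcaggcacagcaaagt
Cyp3a41a (chr5:145720137-145720386, minus strand): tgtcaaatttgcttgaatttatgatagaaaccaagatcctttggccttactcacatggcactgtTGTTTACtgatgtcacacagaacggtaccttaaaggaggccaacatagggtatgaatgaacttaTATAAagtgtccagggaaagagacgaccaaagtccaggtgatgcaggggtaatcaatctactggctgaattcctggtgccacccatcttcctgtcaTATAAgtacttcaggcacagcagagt
Cyp3a16 (chr5:145469724-145469973, minus strand): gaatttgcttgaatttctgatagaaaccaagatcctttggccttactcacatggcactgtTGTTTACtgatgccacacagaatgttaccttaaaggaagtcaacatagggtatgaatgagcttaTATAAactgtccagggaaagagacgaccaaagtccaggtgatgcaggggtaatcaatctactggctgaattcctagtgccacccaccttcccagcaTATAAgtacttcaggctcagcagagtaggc
Cyp3a13 (chr5:137921620-137921869, minus strand): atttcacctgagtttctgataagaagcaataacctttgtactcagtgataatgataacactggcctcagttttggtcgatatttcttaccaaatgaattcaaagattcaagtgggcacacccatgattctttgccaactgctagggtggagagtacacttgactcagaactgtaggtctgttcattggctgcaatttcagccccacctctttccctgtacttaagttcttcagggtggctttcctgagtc
Cyp2c55 (chr19:39006769-39007018, plus strand): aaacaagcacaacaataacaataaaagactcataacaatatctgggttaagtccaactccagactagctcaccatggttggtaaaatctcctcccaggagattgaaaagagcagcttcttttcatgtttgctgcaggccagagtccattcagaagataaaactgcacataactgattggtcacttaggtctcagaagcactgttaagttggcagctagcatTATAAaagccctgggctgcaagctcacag

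The promoters of Cyp3a44, Cyp3a41a and Cyp3a16 were nearly the same sequence. Aligned end to end, Cyp3a44 matched Cyp3a41a at 94.4% and Cyp3a16 at 92.9% of aligned positions. The ratios of Cyp3a44, Cyp3a41a and Cyp3a16 were 0.65, 0.15 and 0.29. Whether these ratios differ from each other, and any link to the promoters, was not tested. Cyp3a11 matched Cyp3a44 at 72.5% and Cyp3a16 at 76.6%. Cyp3a13 matched Cyp3a11 at 57.2%, and Cyp2c55 matched it at 52.0%. Cyp3a11, Cyp3a44, Cyp3a41a and Cyp3a16 each held TGTTTAC once, 198 bases before the start in Cyp3a11, 186 in both Cyp3a44 and Cyp3a41a and 190 in Cyp3a16. The TATAA nearest the start lay 41 bases before it in Cyp3a11, 26 in Cyp3a44 and Cyp3a41a, 30 in Cyp3a16 and 29 in Cyp2c55, while the Cyp3a13 window had neither motif. AGTTCA, a hexamer that the pregnane X receptor binds in pairs, was present in Cyp3a11 and Cyp3a41a on either strand and absent from these letters of the other 4 windows.

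Across the family the searched motifs had these frequencies. Promoters were listed for 38 of the 45 members, with the first entry used where a gene had several. TATAA was in 52.6% of the 38 member windows and in 5255 of all 32851 windows of that length, and TGTTTAC (either strand) in 18.4% and 3.17%. AGGTCA, a nuclear receptor hexamer, was in 28.9% and 14.0%, and AGTTCA in 10.5% and 11.8%, both on either strand. The Ahr core GCGTG was in 15.8% and 28.2% on either strand. TTGCNNAA, a pattern bound by C/EBP factors, was in 23.7% and 9.56% on either strand, and the STAT pattern TTCNNNGAA was in 2.63% and 7.02%. CCAAT on either strand was in 28.9% and 33.8%. No motif contains another, and many of these genes are copies of each other, so their windows are not independent. A match describes the letters and no binding.

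**Figure D2:**
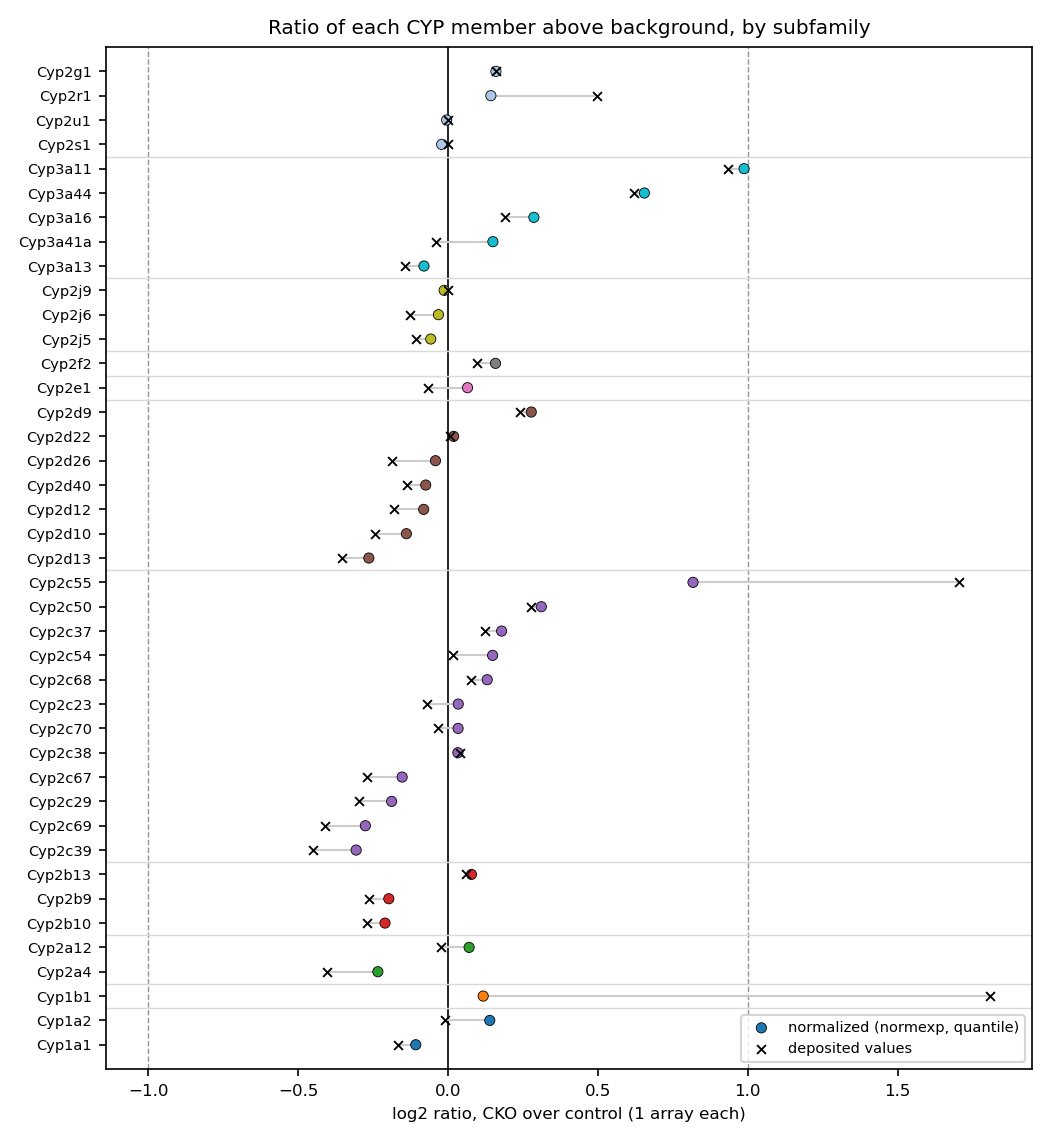
Log2 ratio of CKO over control for the 41 CYP members above background, grouped by subfamily. Filled circles are the normalized scale and crosses the deposited values, 1 array per genotype, with dashed lines at 2-fold. Cyp3a11, Cyp3a44 and Cyp2c55 stand to the right of the rest of their subfamilies on both scales. Cyp1b1, alone in its group, lies past 2-fold in the deposited values only.

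The CYP2C subfamily was the largest, with 12 genes above background, and had ratios on both sides of 0. Cyp2c55, an enzyme of arachidonic acid oxidation that is induced by ligands of both xenobiotic receptors, had deposited intensities of 23 (control) and 75 (CKO). That is 3.26-fold in the deposited values and a ratio of 0.82 on the normalized scale, above the range of genes of its brightness (-0.23 to 0.41, 6153 genes). Its spots lay 22.9 and 62.6 SD of the blank spots above the blank mean, so both values were clear of background although dim. In the deposited values 2 members, Cyp2c55 and the near-background Cyp1b1, passed 2-fold upwards and 0 downwards, against 3.7% and 0.99% of all genes.

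The remaining CYP2C genes lay between -0.31 and 0.31. Cyp2c39, which oxidises retinoic acid, had the lowest ratio of all members (-0.31, deposited intensity 112 and 82), inside the range of genes of its brightness. Cyp2c69 (8985 and 6768, ratio -0.28), Cyp2c29 (8088 and 6584, ratio -0.19) and Cyp2c67 (13075 and 10853, ratio -0.15) were lower in all 6 settings. Cyp2c29 is a known target of the constitutive androstane receptor. Cyp2c50 (1143 and 1386, ratio 0.31), Cyp2c37 (1256 and 1368, ratio 0.18), Cyp2c54 (2980 and 3012, ratio 0.15) and Cyp2c68 (1344 and 1417, ratio 0.13) were higher in all 6. Cyp2c70, which makes the muricholic acids of mouse bile, stood at 6298 and 6153 with a ratio of 0.03, and Cyp2c23 at 3760 and 3584 with the same ratio of 0.03. Cyp2c38 is the only member with several probes, whose ratios were 0.03 and 0.04. The median over the 12 genes was 0.03.

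**Figure D3:**
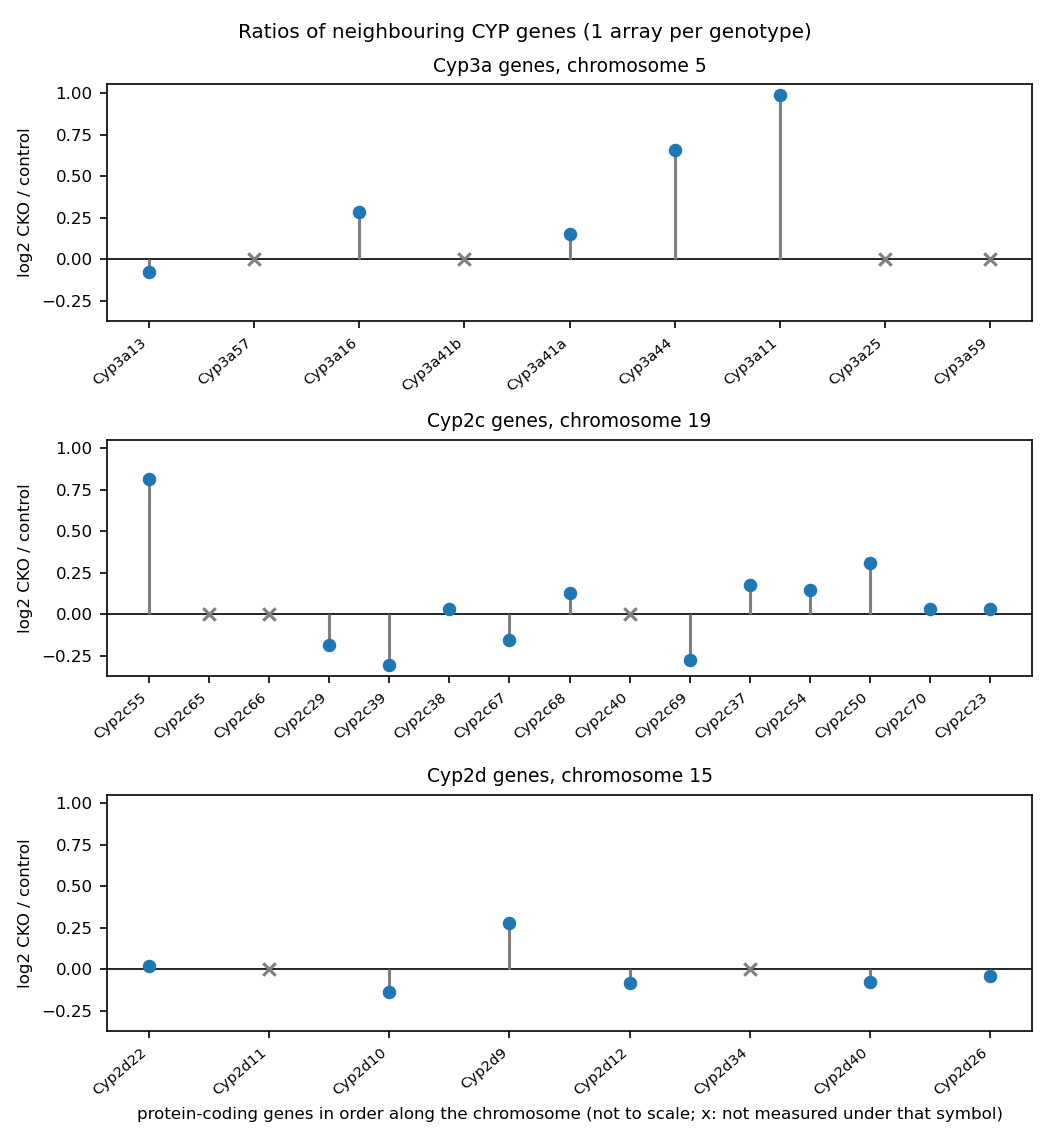
Log2 ratios (normalized scale, 1 array per genotype) of the protein-coding Cyp3a, Cyp2c and Cyp2d genes in their RefSeq order along chromosomes 5, 19 and 15. Points are measured genes, and crosses at 0 mark genes not measured under that symbol. Cyp3a11 and Cyp3a44 are next to each other, while Cyp2c55 stands at the end of its row, apart from the genes near 0.

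The order of the genes along the chromosome set some of these values side by side. Cyp3a11 and Cyp3a44, with ratios of 0.99 and 0.65, are direct neighbours among the protein-coding CYP3A genes, and Cyp3a41a (0.15) and Cyp3a16 (0.29) lie further along the same row. Cyp3a25, on the other side of Cyp3a11, was not measured under that symbol. In the CYP2C row, Cyp2c37, Cyp2c54 and Cyp2c50 are consecutive and had ratios of 0.18, 0.15 and 0.31. Cyp2c29 and Cyp2c39, also consecutive, had ratios of -0.19 and -0.31. RefSeq holds 59 protein-coding genes under the naming rule, of which 44 were measured here.

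CYP2A and CYP2B genes were slightly lower or near equal. Cyp2b10, the standard reporter of constitutive androstane receptor activity, had deposited intensities of 1533 (control) and 1270 (CKO) and a ratio of -0.21. Cyp2b9, a female-predominant form, stood at 2166 and 1806 with a ratio of -0.20, and Cyp2b13, also female-predominant, at 265 and 276 with a ratio of 0.08. Cyp2a4, a steroid 15-alpha-hydroxylase close in sequence to the unmeasured Cyp2a5, stood at 10622 and 8039 with a ratio of -0.23. Cyp2a12 stood at 5435 and 5345, with a ratio of 0.07 whose sign turned in the deposited values (-0.02). None of these differences reached 1.5-fold. Cyp2b19, a form of the skin, was not above background on either array.

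CYP1 genes did not differ in a common direction. Cyp1a2, the main hepatic CYP1 and an oxidiser of caffeine and aryl amines, had deposited intensities of 3979 and 3952. The ratio of Cyp1a2 was 0.14, and -0.01 in the deposited values. Cyp1a1, which is induced by ligands of Ahr and is low in unexposed liver, stood at 82 and 73 with a ratio of -0.11. Cyp1b1, a largely extrahepatic form, had deposited intensities of 2 and 7 and a ratio of 0.12. Its control spot lay only 2.42 SD of the blank spots above their mean, and its CKO spot 5.60, so the 3.50-fold of the deposited values rests on signal at the edge of background.

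CYP2D genes, which oxidise steroids and many drugs, lay within 1.2-fold in 5 of 7 cases (71.4%), against 90.4% of all genes. The 90.4% includes many dim genes with shrunken ratios. Among genes with a mean log2 level of at least 10, which not all 7 reach, the share was 79.2%. Cyp2d9, a testosterone hydroxylase that is male-predominant, had deposited intensities of 505 and 597 and the highest CYP2D ratio, 0.28. Cyp2d26 stood at 15739 and 13833 with a ratio of -0.04, and Cyp2d12 at 5404 and 4769 with a ratio of -0.08. Cyp2d10 stood at 4023 and 3401 with a ratio of -0.14, and Cyp2d40 at 465 and 423 with a ratio of -0.07. Cyp2d13, listed by RefSeq as a transcribed pseudogene, had the lowest ratio of the group, -0.26, from 189 and 148. Cyp2d22 was at 248 and 249. Of the 7 genes 5 lay on the lower side, against 8168 of all 14143 genes on the normalized scale. The CYP2D median was -0.07 on that scale and -0.18 in the deposited values.

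Cyp2e1 and Cyp2f2 mark opposite zones of the liver lobule. Cyp2e1, the pericentral enzyme that oxidises ethanol and paracetamol, had deposited intensities of 31102 and 29679, with a ratio of 0.07 on the normalized scale and -0.07 in the deposited values. Cyp2f2, which activates naphthalene and is periportal in mouse liver, had 646 and 691 and a ratio of 0.16. Neither differed by 1.2-fold on either scale. Cyp1a2, also pericentral, was likewise near equal as given above.

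CYP2J genes and the remaining CYP2 members also lay close to 0 on the normalized scale. Cyp2j5, an arachidonic acid epoxygenase, had deposited intensities of 1773 and 1646 and a ratio of -0.06. Cyp2j6 (24 and 22, ratio -0.03) and Cyp2j9 (36 and 36, ratio -0.01) were dim, and Cyp2j11 and Cyp2j13 were not above background on either array. Cyp2r1, the vitamin D 25-hydroxylase, was dim at 17 and 24, with a ratio of 0.14, and 0.50 in the deposited values. Cyp2g1, an olfactory form, had 146 and 163 and a ratio of 0.16. Cyp2s1 (6 and 6) and Cyp2u1 (8 and 8) were equal in the deposited values, and Cyp2t4 was not above background on either array.

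The receptors that govern these genes, given here for their role and outside the rule for named genes, were near equal. Ahr had deposited intensities of 153 and 151, Nr1i2 252 and 238, and Nr1i3 679 and 589, with ratios of 0.00, -0.06 and -0.12. Of 19 measured receptors and regulators 9 lay on the higher side (47.4%, against 42.2% of all genes). Their median was -0.01, and 0 reached 2-fold on the normalized scale. The largest ratios among them were those of the repressor Nr0b2 (-0.92, and past 2-fold in the deposited values at 490 and 233), Foxa3 (0.59), Foxa2 (-0.51) and Cebpb (0.47). The known targets of the xenobiotic receptors had ratios on both sides of 0. Of 11 measured targets of Nr1i3 and Nr1i2, 6 of them members, 4 were higher (36.4%, against 42.2% of all genes) and 7 lower. Cyp3a11 and Cyp2c55 were at the top and the haem synthesis enzyme Alas1 (-1.10) at the bottom. Of 6 measured Ahr targets, 3 of them members, 5 were higher (83.3%) with a highest ratio of 0.24, and all 6 lay within 1.2-fold.

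Alas1 and Hmox1, at opposite ends of haem turnover, differed by more than 2-fold in opposite directions, on the normalized scale and in the deposited values. Alas1, the rate-limiting enzyme of haem synthesis, had deposited intensities of 2396 (control) and 1039 (CKO), and a ratio of -1.10. Alad, the next enzyme, stood at 1307 and 921 (ratio -0.41), and Fech, which inserts the iron, at 125 and 141 (0.14). Hmox1, which degrades haem, stood at 210 and 510 with a ratio of 1.14. Cytochrome b5 (Cyb5a), an electron donor of CYP enzymes, was at 13017 and 12123 with a ratio of -0.02.

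Most other enzymes of xenobiotic metabolism also lay close to 0. The 49 measured conjugating and related enzymes had a median of 0.03. Of the 49, 40 lay within 1.2-fold, against 90.4% of all genes and 79.2% of genes with a mean log2 level of at least 10. Their largest ratios were those of the sulfotransferase Sult5a1 (0.998, just short of 2-fold on the normalized scale, and 1.28 in the deposited values from 101 and 246), the carboxylesterases Ces1e (-0.63) and Ces1d (-0.48) and the aldehyde oxidase Aox3 (0.51). Transporters had a median of 0.03 over 13 genes, from Abcc6 (-0.80) to Abcb11 (0.37).

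**Figure D4:**
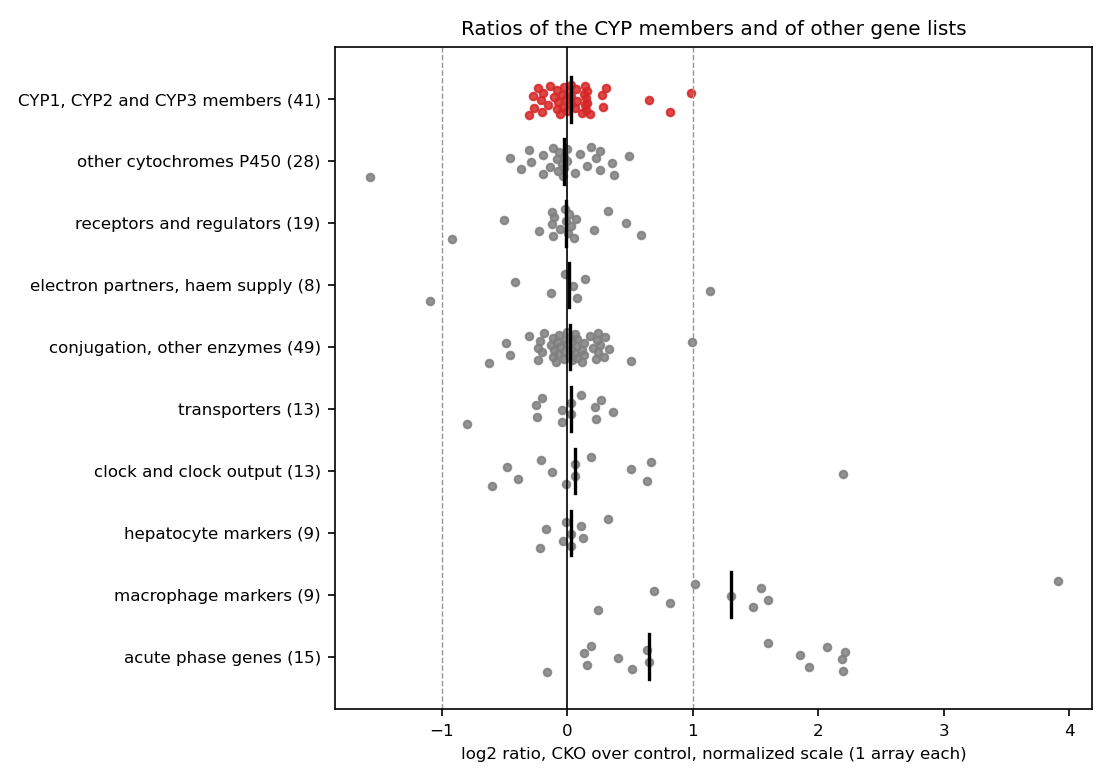
Log2 ratios of CKO over control (normalized scale, 1 array each) for the 41 CYP members in red and for other gene lists in grey, with the number of genes above background in brackets. Each point is a gene, black bars are medians and dashed lines mark 2-fold. The CYP members, with a median of 0.03, sit close to 0 like the hepatocyte markers, while macrophage markers and acute phase genes lie mostly to the right.

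The livers differed in other respects beside these near-equal CYP values. Of all genes, 42.2% lay on the higher side on the normalized scale and 0.636% passed 2-fold upwards. Acute phase genes were higher in 14 of 15 cases, 7 of these past 2-fold, and their median was 0.65, and Saa1 had deposited intensities of 1047 and 4707. All 9 measured macrophage markers were higher, with a median of 1.30, and the deposited intensities summed to 1979 (control) and 6580 (CKO), the latter including 5 from Adgre1, which was above background on the CKO array only. Cholangiocyte markers were lower in 4 of 4 cases (median -0.19) and endothelial markers in 4 of 6 (median -0.29, lowest Oit3 at -0.64). Lymphocyte markers were higher in 3 of 3 cases on the normalized scale (median 0.38), but Cd79a among them was dim and equal in the deposited values (8 and 8, ratio 0.02). Outside these 3, Nkg7 was above background on the CKO array only (deposited intensity 26, ratio 0.59) and Cd3e on neither array. Stellate and fibroblast markers were higher in 4 of 6 (median 0.04). In whole liver, fewer cells of a type and less RNA per cell cannot be told apart. The clock output factor Dbp, which drives several CYP genes by time of day, had deposited intensities of 17 and 239 (ratio 2.20), and the clock repressors Nr1d1 (0.64) and Nr1d2 (0.67) were higher while Nfil3 was lower (-0.60). Sampling time was not given in the sources used here. For Cyp3a11, Cyp2c55 and Cyp3a44, the part of any of these in the ratios was not tested.

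Several members belong to genes known to differ between the sexes in mouse liver. Of 7 female-biased members, Cyp2a4, Cyp2b9, Cyp2b13, Cyp2c69, Cyp3a16, Cyp3a41a and Cyp3a44, all were above background on both arrays, with ratios from -0.28 for Cyp2c69 to 0.65 for Cyp3a44. Of all 11 measured female-biased genes 5 were higher (45.5%, against 42.2% of all genes), with a median of -0.02. The 4 that are no members were Sult3a1 (518 and 262, ratio -0.85), Cyp17a1 (-0.19), Acot3 (-0.02) and Cux2 (0.03). The male-biased Cyp4a12a had deposited intensities of 2 and 16, Hsd3b5 5 and 3, and Elovl3 22 and 39. Of 12 measured male-biased genes 9 were higher in the CKO liver (75%, against 42.2% of all genes), with a median of 0.25. Among the 9 were the complement genes C8a (deposited intensity 146 and 328) and C6 (38 and 105). Cyp4a12a, Slco1a1 (15 and 26), Elovl3 and C6, all of the 9, were dim on the control array. These levels were not used to call the sex of either sample.

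**Figure D5:**
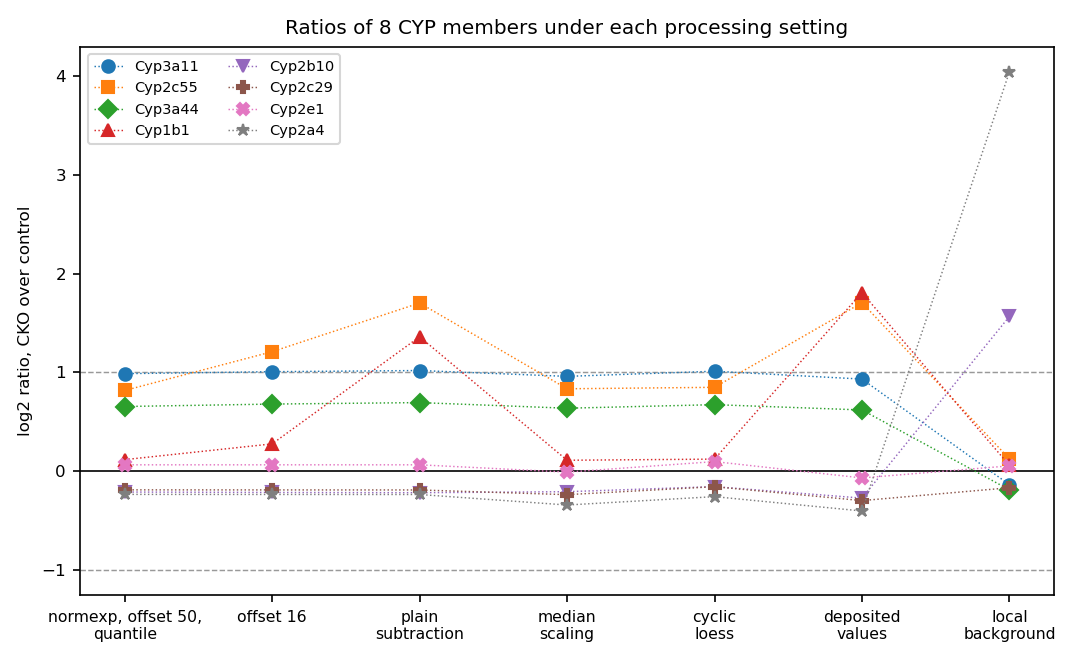
Log2 ratio of CKO over control for 8 CYP members under each of 7 ways of processing the arrays, 1 array per genotype, with dashed lines at 2-fold. Cyp3a11, Cyp2c55 and Cyp3a44 are above 0 in the first 6, Cyp1b1 is near 0 in the settings with an offset of 50 and past 2-fold in plain subtraction and the deposited values, and the local background column gives different values for several members.

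Among the 6 settings that do not use the local background column, the brighter Cyp3a11 and Cyp3a44 moved little and the dim Cyp2c55 and Cyp1b1 moved more. Cyp3a11 had ratios between 0.93 and 1.02 and Cyp3a44 between 0.62 and 0.69. Cyp2c55, at a lower intensity, went from 0.82 to 1.71, and Cyp1b1 from 0.11 to 1.81. Against the local background column Cyp3a11 was at -0.14, Cyp3a44 at -0.19 and Cyp2c55 at 0.13. Several other members moved far there, with Cyp2a4 at 4.04, Cyp2f2 at 2.19, Cyp2c37 at -1.71 and Cyp2d10 at -1.93. That column followed the brightness of the spot itself (across the gene spots of an array, in log2 units, r = 0.988 for control and 0.972 for CKO).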

How the data were processed

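Liver RNA of 1 control and 1 CKO sample was amplified with an amino allyl kit and coupled to Cy5, per the labels' protocols. Scanner files hold a median intensity per spot and for the area around it, with least-squares lines between 3 scanner gains, per the file headers. The deposited value table holds the authors' linear intensity. Its making was not given in the sources used here. Its entries follow the spot minus the 5% trimmed blank mean times a factor of 0.859 (control) or 0.825 (CKO) to within 1.53 and 0.754. Its column medians are 25 and 25.

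The 4 spots marked bad on the control array were left out (0 on the CKO array). Spots were corrected with normexp against the mean of the 384 blank spots with an offset of 50, then quantile-normalized on the log2 scale (limma 3.58.1, R 4.3.3). The method was tested on simulated data. A probe was above background past the blank mean plus 2 SD (69.5 control, 72.2 CKO). Probes of a gene were averaged in log2 units. Of the probes, 20690 had 1 symbol, 0 several and 2783 none. Precision is limited by the number of arrays.

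The members and lists were chosen with earlier results of these data known. By rule, named members were the brightest, highest and lowest of each subfamily, those past 1.5-fold and a list chosen by role. The other members, and a few genes of other lists beyond the 4 with the largest ratios (receptors, Cyb5a, albumin, Hsd3b5, Elovl3), were added after their values were seen.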

Additional observations from a re-analysis of the deposited data

How the results depend on the processing

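The count of members at least 2-fold higher was 0 on the main scale, and 0 also with median scaling, with no filter on dim genes and with the brightest probe. It was 3 with plain subtraction of the blank mean, 2 with the offset lowered to 16, 2 when the deposited values were used, 1 with cyclic loess and 6 against the local background column. Cyp3a11 lies close to the 2-fold line. It was past it with plain subtraction (1.02), the offset of 16 (1.01) and cyclic loess (1.01), where it made up the 1. Cyp2c55 was past it with plain subtraction, the offset of 16 and the deposited values, and Cyp1b1 with plain subtraction and the deposited values. The count at least 2-fold lower was 0 in all of these settings except against the local background column, where it was 3. The members' median ratio of 0.03 lay between -0.02 and 0.06, but was -0.11 against that column. There Cyp3a11 (-0.14) and Cyp3a44 (-0.19) had the opposite sign. The cause was not tested. With an offset the ratios of dim members such as Cyp1b1 are pulled towards 0, so differences near background are not measurable here. No paired analysis was possible because each genotype has 1 array.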

Other observations

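Of the cytochromes P450 outside the naming rule, 28 were above background on both arrays. On the normalized scale 11 lay on the higher side (39.3%, against 42.2% of all genes) and 17 on the lower. Their median was -0.03. The fatty acid hydroxylase Cyp4a14 had deposited intensities of 7065 (control) and 2252 (CKO) and a ratio of -1.57, the only one past 2-fold on that scale. The dim Cyp4a12a, with 2 and 16, passed it in the deposited values and with plain subtraction. Cyp39a1 (-0.46), an oxysterol hydroxylase of bile acid synthesis, and Cyp7b1 (0.49), another, came next on the normalized scale. Pericentral genes that are no members were higher in 9 of 13 cases (69.2%, against 42.2% of all genes), with a median of 0.12. The highest were the ammonium transporter Rhbg (237 and 581, ratio 1.19), Oat (0.63) and Glul (0.58). Against the local background column Rhbg was at -0.92. The 4 lower ones were Nkd1 (-0.16), Rnf43 (-0.09), Cyp27a1 (-0.07) and Znrf3 (-0.01). The pericentral members Cyp2e1 and Cyp1a2 had ratios of 0.07 and 0.14. Periportal genes that are no members were higher in 4 of 11 cases (36.4%, against the same 42.2%), with a median of -0.12. Pck1 (0.57) and Ctsc (0.55) had the highest ratios of that list, G6pc (-0.42) and Arg1 (-0.39) the lowest. Whether the zones differ was not tested.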
